A study of Mus musculus with 6 samples.

Results

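Focal adhesions are the plaques through which integrins, the receptors for extracellular matrix, are tied to the actin cytoskeleton. The 10 genes described here encode their core: the talins Tln1 and Tln2, vinculin (Vcl), paxillin (Pxn), zyxin (Zyx), the kindlins Fermt2 and Fermt3, integrin-linked kinase (Ilk), alpha-parvin (Parva) and tensin 1 (Tns1). They were picked by symbol from the 43432 genes of a mouse RNA-seq count table, all 10 were found, and 9 had enough reads to be tested among 12881 genes. The choice was made with the difference between the groups of these same libraries already known, so every value of that difference given below describes the genes and supports nothing further.

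Talin binds the tail of integrin beta chains and holds them in the active state, and kindlin binds the same tail as a co-activator. Vinculin docks onto stretched talin and adds actin links, while integrin-linked kinase, a pseudokinase, forms a complex with a PINCH protein and a parvin. In mice, talin 1 is made in most tissues and talin 2 is prominent in striated muscle and brain. Kindlin-2, from Fermt2, is the form of mesenchymal cells, and kindlin-3, from Fermt3, is the form of blood cells.

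By its design text the study removed Igf1 from fibro-adipogenic progenitors (FAPs), mesenchymal cells resident in mouse muscle. There were 3 libraries labelled FID and 3 labelled control, all with skeletal muscle as source and the tag D3, which the labels do not spell out, nor do they spell out FID. Per the labels' protocols, male and female mice, 12 to 13 weeks old, were dosed with tamoxifen (100 ug/g, 5 days) and then left for 1 week or longer. Which allele, strain or Cre driver was used is not given in the sources read here. Nothing says that each library is a different animal, so p-values measure the spread between libraries, which may be technical.

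Gene counts summed to 8750157 to 9676812 in FID and to 5201853 to 10093757 in control, with control 1 the shallowest. Igf1 itself stood at 109, 107 and 81.6 CPM (counts scaled to library size with TMM factors) in FID 1, 2 and 3, against 134, 60.4 and 106 CPM in control 1, 2 and 3, so with overlapping groups its whole-gene count does not check the labels. FID and control below stand for the libraries so labelled. The labels describe muscle frozen in OCT, an embedding medium, yet defining transcripts of muscle fibres were scarce: 14 myofibre markers summed to 25.2 to 42.0 CPM in FID and 12.1 to 85.4 CPM in control. Control 1 stood apart on the second principal component (39.5, against -32.7 to 18.8 in the other libraries), and FID 1 lay nearest to the control libraries on the first.

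Ilk could not be measured. It had 5, 0 and 1 counts in FID 1, 2 and 3, and 1, 3 and 1 counts in control 1, 2 and 3, all but 1 of them at or below the 3 counts that a count of 0 allows in a library. Ilk (ENSMUSG00000030890, mm10 chromosome 7, 105736592 to 105742925, plus strand) shares 89.7% of its 2744 annotated exon bases with genes on the other strand, Taf10 and Rrp8. Taf10, a subunit of the general transcription factor TFIID, had 417, 428 and 456 counts in FID and 194, 452 and 495 counts in control.

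Genes wholly under such overlap were mostly without counts across the table. Of 290 genes whose annotated exons lie wholly under exons of opposite-strand genes, 276 had no count in any library. Among them were 29 of 32 protein-coding genes. Ilk is not wholly covered, and counts were less rare in its own class, an overlap of 85% to 95%. There 16 of 64 genes (25.0%) had a count, among them 7 of 16 protein-coding genes, and 1 gene had a mean of at least 10 counts. Of 16077 protein-coding genes without any exonic overlap, 72.0% had a count. Reads in such overlaps were set aside as ambiguous in counts that pool both strands, and they made up 3.93% to 4.06% of each file. No level or fold is given for Ilk, and its row says nothing about how much Ilk RNA the samples held.

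Among the other members, Vcl shares 25.5% of its exon bases with Ap3m1 on the other strand, Zyx 4.38%, Tln1 3.67% and Fermt3 1.54%. Tln2, Pxn, Fermt2, Parva and Tns1 share none. Levels are therefore given per kilobase of exon that no other gene overlaps (RPKM), which differs most from a plain gene length for Vcl.

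Starts of 3 of the genes are shown because they set the kindlin pair side by side and because Vcl and Fermt2 carry a CArG box. This is the recognition site of the serum response factor SRF, which acts with MRTF on actin-linked genes. Its part in the values of these genes was not tested. The stretches end at the base before the annotated transcript and come from RefSeq on GRCm38.p6. Capitals mark matches to the CArG box and to the TEAD motif GGAATG, searched on both strands. Vcl is read from chr14:20929148-20929397 on the plus strand, Fermt2 from chr14:45530119-45530315 on the minus strand and Fermt3 from chr19:7019470-7019719 on the minus strand.
Vcl: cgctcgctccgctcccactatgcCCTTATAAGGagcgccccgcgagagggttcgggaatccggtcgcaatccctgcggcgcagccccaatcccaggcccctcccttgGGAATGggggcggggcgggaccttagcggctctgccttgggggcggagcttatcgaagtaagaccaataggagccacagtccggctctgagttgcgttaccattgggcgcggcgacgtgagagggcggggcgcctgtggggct
Fermt2: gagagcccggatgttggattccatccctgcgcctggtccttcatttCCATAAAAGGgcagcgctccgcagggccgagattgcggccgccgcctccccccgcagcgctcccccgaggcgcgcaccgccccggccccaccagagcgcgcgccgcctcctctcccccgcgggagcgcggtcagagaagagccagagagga
Fermt3: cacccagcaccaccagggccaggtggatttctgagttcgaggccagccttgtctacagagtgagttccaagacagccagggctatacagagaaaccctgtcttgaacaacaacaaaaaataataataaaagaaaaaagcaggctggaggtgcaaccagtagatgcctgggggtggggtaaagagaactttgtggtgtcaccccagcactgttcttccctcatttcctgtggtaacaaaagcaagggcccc

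Of 7 members with a promoter entry (Tln1, Vcl, Zyx, Fermt2, Fermt3, Ilk and Tns1), Vcl and Fermt2 held a CArG box, at bases -227 to -218 and -204 to -195 from the RefSeq start. A CArG box stood in 1.63% of all 32851 mouse promoter windows of 300 bases. The TEAD motif was found in Vcl alone among these genes, at -143 to -138, and in 14.7% of all windows. Zyx held an AP-1 motif TGANTCA at -121 to -115 (7.81% of all windows) and Tln1 the PU.1 core at -71 to -66 (28.3%). Both of these matches lie inside the annotated gene, which takes in the last 198 bases before the RefSeq start in Zyx and 108 in Tln1. The GC box GGGCGG was found in windows of Vcl, Zyx, Fermt2, Ilk and Tns1 (35.7% of all windows), at some places next to or overlapping another copy. The Fermt3 window held none of these 5 motifs and had 3 CpG in its 300 bases, against 37 in the Fermt2 window and 30 in that of Vcl. A match is a description of letters and not a bound site.

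Talin 1 was the most abundant of the 9 measured members per length and talin 2 the least. Tln1 (ENSMUSG00000028465, chromosome 4, 43531519 to 43562691) stood at 58.2, 61.5 and 57.0 RPKM in FID 1, 2 and 3, against 71.5, 74.0 and 60.8 RPKM in control 1, 2 and 3. Tln2 (ENSMUSG00000052698, chromosome 9, 67217087 to 67559703) stood at 3.18, 2.71 and 2.79 RPKM in FID, against 5.17, 6.10 and 7.03 RPKM in control. Control 3 had the lowest Tln1 level and the highest Tln2 level of the control libraries, and every FID library had less Tln2 than any control library.

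**Figure D1:**
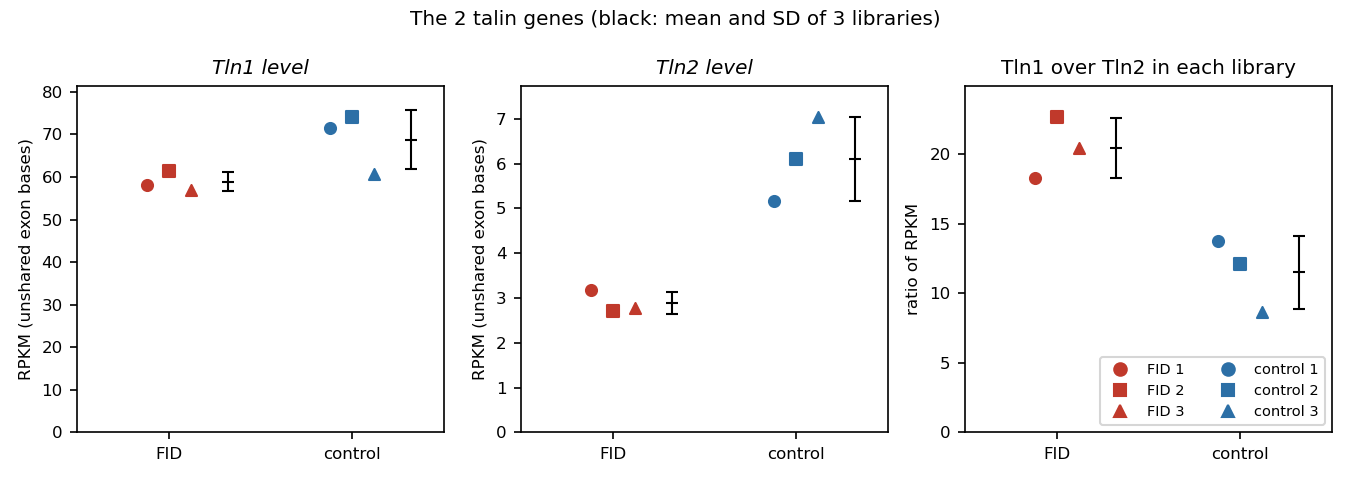
Level of Tln1 and of Tln2 (RPKM over exon bases that no other gene overlaps) and the ratio of the 2 levels in each library, FID left of control, with the mean and SD of 3 libraries in black. Tln2 and the ratio separate the groups, whereas the Tln1 level of control 3, 60.8 RPKM, lies among the FID values of 57.0 to 61.5 RPKM.

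Tln1 exceeded Tln2 in 6 of 6 libraries, by an unequal factor. The level of Tln1 was 18.3, 22.7 and 20.4 times that of Tln2 in FID 1, 2 and 3, against 13.8, 12.1 and 8.64 times in control 1, 2 and 3. The mean ratio was 20.5 ± 2.18 in FID and 11.5 ± 2.63 in control (SD, n = 3 each), and the groups did not overlap. On the log2 scale the ratio differed by 0.85 between FID and control, a 1.80-fold higher ratio in FID. Tln2 made up 4.23% to 5.18% of the talin level in FID and 6.75% to 10.4% in control. These shares and factors hold for the length used here. Over 6 libraries Tln1 and Tln2 averaged 63.8 and 4.50 RPKM, against 71.8 and 6.8 RPKM with the longest coding transcript as length. The log2 difference between the groups does not depend on the length. A ratio within a library does not depend on how libraries are scaled to each other.

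Most of this lay on the Tln2 side. In CPM, Tln2 averaged 53.1 ± 4.61 in FID and 112 ± 17.1 in control (SD, n = 3 each), a log2 fold change of -1.08 (SE 0.15), or 52.6% lower in FID. Tln1 averaged 556 ± 21.9 CPM in FID and 649 ± 66.0 CPM in control, a log2 fold change of -0.22 (SE 0.13), or 14.3% lower in FID, with overlapping groups. Tln2 ranked 11 among 12881 genes by edgeR p and Tln1 4268. In a bulk sample, fewer cells that carry a transcript and less of it per cell cannot be told apart, and this holds for each difference below.

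Vinculin, the partner that binds talin, was lower in FID. Vcl (ENSMUSG00000021823, chromosome 14, 20929398 to 21033676) stood at 110, 93.2 and 97.8 CPM in FID 1, 2 and 3, against 199.6, 153 and 145.0 CPM in control 1, 2 and 3. No FID library reached a control library, control 1 was the highest of all, and the log2 fold change was -0.72 (SE 0.16), or -0.57 without control 1. Ap3m1, whose exons overlap its own, ran the other way, at 56.8 to 58.4 CPM in FID and 42.9 to 53.0 CPM in control. Set against Tln1 per length, vinculin stood at 0.280 ± 0.0303 in FID and 0.396 ± 0.0599 in control (SD, n = 3 each), without overlap.

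The kindlin genes differed in opposite directions. Fermt2 (ENSMUSG00000037712, chromosome 14, 45458795 to 45530118) stood at 130, 101 and 114 CPM in FID 1, 2 and 3, against 166, 153 and 169 CPM in control 1, 2 and 3. Fermt3 (ENSMUSG00000024965, chromosome 19, 6998958 to 7019469) stood at 89.6, 116 and 94.5 CPM in FID, against 68.4, 57.4 and 36.3 CPM in control. The groups overlapped in neither gene, with Fermt2 lower in FID (log2 fold change -0.50, SE 0.14) and Fermt3 higher (0.89, SE 0.24, 1.86-fold). Without control 3, which had the least Fermt3, its log2 fold change was 0.69. The level of Fermt2 per length was 1.60, 0.953 and 1.32 times that of Fermt3 in FID 1, 2 and 3. In control 1, 2 and 3 it was 2.66, 2.92 and 5.08 times. With this length, kindlin-3 transcripts were the more abundant of the pair in FID 2. The ratios shift with the length used. Over 6 libraries Fermt2 and Fermt3 averaged 26.7 and 13.5 RPKM, against 42.1 and 29.8 RPKM with the longest coding transcript as length.

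Alpha-parvin, which links integrin-linked kinase to actin, was slightly lower in FID. Parva (ENSMUSG00000030770, chromosome 7, 112427505 to 112591692) stood at 226, 192 and 212 CPM in FID 1, 2 and 3, against 256, 248 and 262 CPM in control 1, 2 and 3. It varied least among the members within control, by a factor of 1.05 between its lowest and highest library, and its log2 fold change was -0.28 (SE 0.12).

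Paxillin, zyxin and tensin 1 did not separate the groups. Pxn (ENSMUSG00000029528, chromosome 5, 115506676 to 115555987), a scaffold for adhesion kinases, stood at 131, 122 and 122 CPM in FID, against 208, 136 and 84.3 CPM in control 1, 2 and 3. Zyx (ENSMUSG00000029860, chromosome 6, 42349630 to 42360213), a LIM protein that brings actin regulators to strained adhesions, stood at 173, 162 and 154 CPM in FID, against 221, 169 and 142 CPM in control. Tns1 (ENSMUSG00000055322, chromosome 1, 73910231 to 74124449), an actin-binding protein of the long adhesions on fibrils, stood at 131, 140 and 121 CPM in FID, against 314, 152 and 119 CPM in control. In all of them control 1 was the highest library and control 3 the lowest, and the FID libraries lay within that range.

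These differences changed most with control 1 left out. The log2 fold changes were -0.19 (SE 0.29) for Pxn, -0.12 (SE 0.18) for Zyx and -0.57 (SE 0.34) for Tns1. Without control 1 they were 0.18, 0.069 and -0.053, and without control 3 they were -0.45, -0.24 and -0.82. Markers of vessels stood high in that same library, with 12 endothelial markers summing to 1459 to 2331 CPM in FID and to 5141, 2253 and 1497 CPM in control 1, 2 and 3. The 10 pericyte and smooth muscle markers summed to 1259 to 1413 CPM in FID and to 2749, 1610 and 1429 CPM in control 1, 2 and 3, without overlap. Of these lists 12 of 12 and 9 of 10 markers lay below 0, none was at 0 counts, and the part of either list in the Tns1, Pxn and Zyx values was not tested.

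**Figure D2:**
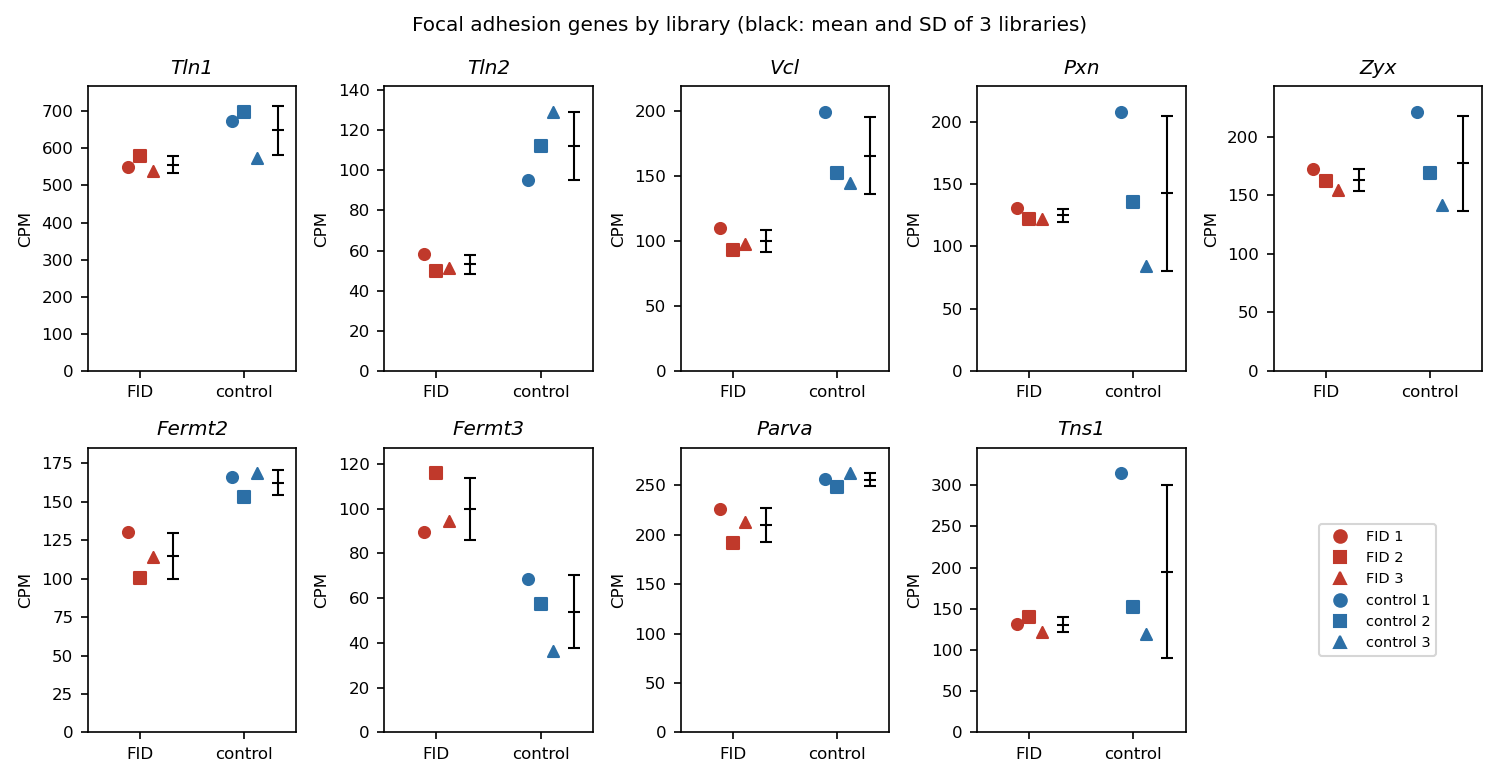
CPM of the 9 measured members in each library, FID left of control, on axes that start at 0, with the mean and SD of 3 libraries in black. Tln2, Vcl, Fermt2 and Parva lie lower and Fermt3 higher in every FID library than in any control library, and control 1 is the highest library for Vcl, Pxn, Zyx and Tns1.

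By level per length the order was Tln1, Zyx, Fermt2, Parva, Vcl, Pxn, Fermt3, Tns1 and Tln2, with means over 6 libraries of 63.8, 33.0, 26.7, 22.9, 21.8, 16.3, 13.5, 10.2 and 4.50 RPKM. Each of Tln1, Fermt2, Vcl and Tns1 exceeded the next gene in the order in 6 of 6 libraries. Zyx exceeded Fermt2 in 5 libraries, and Parva, Pxn and Fermt3 exceeded their next neighbour in 4, so these neighbours have no fixed order over the 6 libraries. The order of the group means differed for Fermt3, which averaged 17.6 ± 2.45 RPKM in FID, above Vcl (16.4 ± 1.40), Pxn (15.2 ± 0.608) and Tns1 (8.17 ± 0.579). In control Fermt3 averaged 9.49 ± 2.86 RPKM (SD, n = 3 each), below Vcl (27.2 ± 4.84), Pxn (17.4 ± 7.59) and Tns1 (12.2 ± 6.53). With all merged exon bases as length, Pxn and Vcl changed places, and with the longest coding transcript Parva came before Fermt2 and Vcl took place 7. By the mean over 6 libraries, Tln1 and Zyx led and Tns1 and Tln2 closed the order under each of these lengths.

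**Figure D3:**
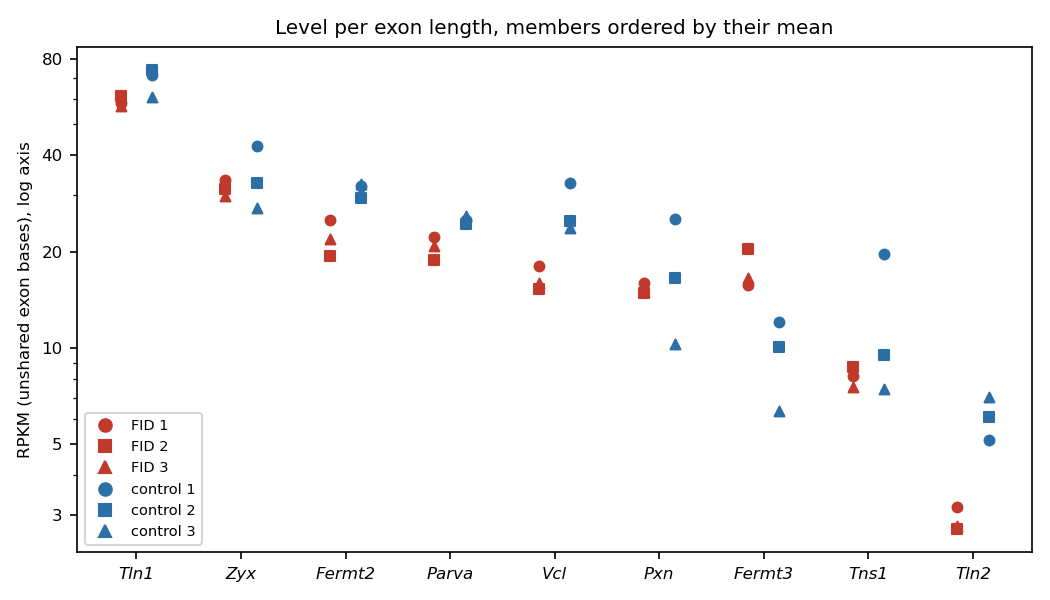
Level per exon length (RPKM, log axis) of the 9 measured members, ordered by their mean over 6 libraries, with FID points left of control points. Tln1 leads in each library and Tln2 is lowest in each but control 3, where Fermt3 (6.38 RPKM) lies below Tln2 (7.03 RPKM) and Tns1 (7.43 RPKM) just above it.

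Counted together, 8 of 9 members fell on the negative side of 0 on the log2 scale, as did 52.2% of all tested genes, and the median was -0.28, against -0.019 over all tested genes. The groups did not overlap in 4 members lower in FID (12.3% of all tested genes) and 1 higher (13.0%; 25.3% in either direction). No member passed edgeR's quasi-likelihood test after Benjamini-Hochberg adjustment over all genes (0% of all tested genes passed, smallest adjusted p 0.109), with adjusted p of 0.122 to 0.759. An unadjusted p under 0.05 was reached by 4 members lower and 1 higher in FID (9.21% and 9.81% of all tested genes, 19.0% together). DESeq2 called Tln2, Vcl and Fermt2 lower and Fermt3 higher (2.18% and 3.60% of the genes it gave an adjusted p, 5.78% in all), limma-voom called none of the members, and limma-voom with sample weights called the same 4 genes as DESeq2. Since the members were chosen on this very contrast, nothing is read from these counts. Each of the 9 tested members had at least 346 counts in every library, so none passed the filter on low counts through 1 group alone.

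The wider adhesion machinery was read from 6 further lists, 107 genes in all, of which 106 were tested. Fermt1, the epithelial kindlin, had no count in any library. In all lists together 83 genes had a log2 fold change below 0 and 23 above, 0 passed edgeR's adjusted test, and an unadjusted p under 0.05 was reached by 26 lower and 6 higher in FID (9.21% and 9.81% of all tested genes). DESeq2 called 5 lower and 5 higher (2.18% and 3.60% of all genes it gave an adjusted p, the shares to set beside its counts in each list below), and the median log2 fold change was -0.29.

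The list of partners of integrin-linked kinase and activators of talin had 8 members above 0 and 7 below, a median log2 fold change of 0.0038, no gene past edgeR's adjusted test and 4 called higher by DESeq2 (3.60% of all genes). Groups did not overlap in 5 genes higher and 1 lower in FID (13.0% and 12.3% of all tested genes). Apbb1ip, which encodes RIAM, the adaptor that carries talin to the membrane, stood at 101, 127 and 136 CPM in FID, against 63.5, 72.1 and 89.5 CPM in control. Rap1a, the small GTPase that RIAM binds, had a log2 fold change of 0.46 (SE 0.12) and Parvg, gamma-parvin of blood cells, 0.99 (SE 0.28). Each of these 3 genes stood higher in every FID library than in any control library. The fourth gene called by DESeq2 was Rap1b, a close relative of Rap1a, named after its value was seen.

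LIM adaptors were mixed. Of 16, 12 lay below 0 and 4 above, with a median of -0.15 and 1 called, higher, by DESeq2 (3.60% of all genes). That gene was Lpxn, leupaxin, the paxillin relative of blood cells, at 41.0, 90.2 and 68.4 CPM in FID 1, 2 and 3, against 27.1, 28.1 and 22.5 CPM in control (log2 fold change 1.36, SE 0.28). Pdlim7 and Pdlim2, PDZ-LIM proteins of actin structures, had -0.46 (SE 0.20) and -0.25 (SE 0.12), and Pdlim7 had -0.26 without control 1.

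Actin-linking adaptors lay mostly below 0, 14 of 16 with a median of -0.39 and none called by either tool. Actn1 and Actn4, the non-muscle alpha-actinins that cross-link actin at adhesions, had changes of -0.62 (SE 0.19) and -0.33 (SE 0.13) on the log2 scale, and Actn1 had -0.41 without control 1. Svil, the myosin- and actin-binding supervillin, had -0.53 (SE 0.19).

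Adhesion kinases and signalling adaptors had 16 of 18 genes below 0, a median of -0.29 and 2 called lower by DESeq2 (2.18% of all genes). Dlc1, which encodes a protein that binds talin and tensins, stood at 139, 152 and 147 CPM in FID, against 323, 234 and 263 CPM in control (log2 fold change -0.90, SE 0.15). Dock1, an activator of Rac downstream of paxillin and Crk, had -0.62 (SE 0.15). Ptk2b, the focal adhesion kinase relative Pyk2 that is abundant in myeloid cells, went the other way, with 0.83 (SE 0.27), or 1.27 without control 1 and FID 1.

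Actomyosin genes of stress fibres had 20 of 23 below 0, a median of -0.42 and 1 called lower by DESeq2 (2.18% of all genes). It was Myh10, non-muscle myosin heavy chain IIB, at 93.5, 58.6 and 53.3 CPM in FID 1, 2 and 3, against 142, 126 and 132 CPM in control. Cnn3, a calponin, and Tpm2, a tropomyosin, had -0.48 (SE 0.15) and -0.47 (SE 0.15). Actb and Tpm3 went the other way, with 0.27 (SE 0.12) and 0.24 (SE 0.12). Groups did not overlap in 8 genes lower in FID and in these 2 higher (12.3% and 13.0% of all tested genes). The list summed to 9342 to 9544 CPM in FID and to 11540, 9838 and 9647 CPM in control 1, 2 and 3, so control 1 stood highest. This list shares Acta2 and Myh11 with the smooth muscle markers.

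SRF-MRTF and YAP-TEAD genes had 14 of 18 below 0, a median of -0.33 and 2 called lower by DESeq2 (2.18% of all genes). They were Tead1, a DNA-binding partner of YAP, with a log2 fold change of -0.68 (SE 0.17), and Flnc, filamin C, with -0.50 (SE 0.13). Wwtr1, which encodes the co-activator TAZ, had -0.63 (SE 0.20), or -0.40 without control 1. The 4 genes above 0 were all target genes and not regulators. They were Ccn1 with 0.48 (SE 0.24), Ankrd1 with 0.60 (SE 0.74), Fhl2 with 0.305 (SE 0.15) and Axl with 0.30 (SE 0.21). Groups did not overlap in 8 genes lower and 2 higher in FID, the latter Ccn1 and Fhl2 (12.3% and 13.0% of all tested genes).

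**Figure D4:**
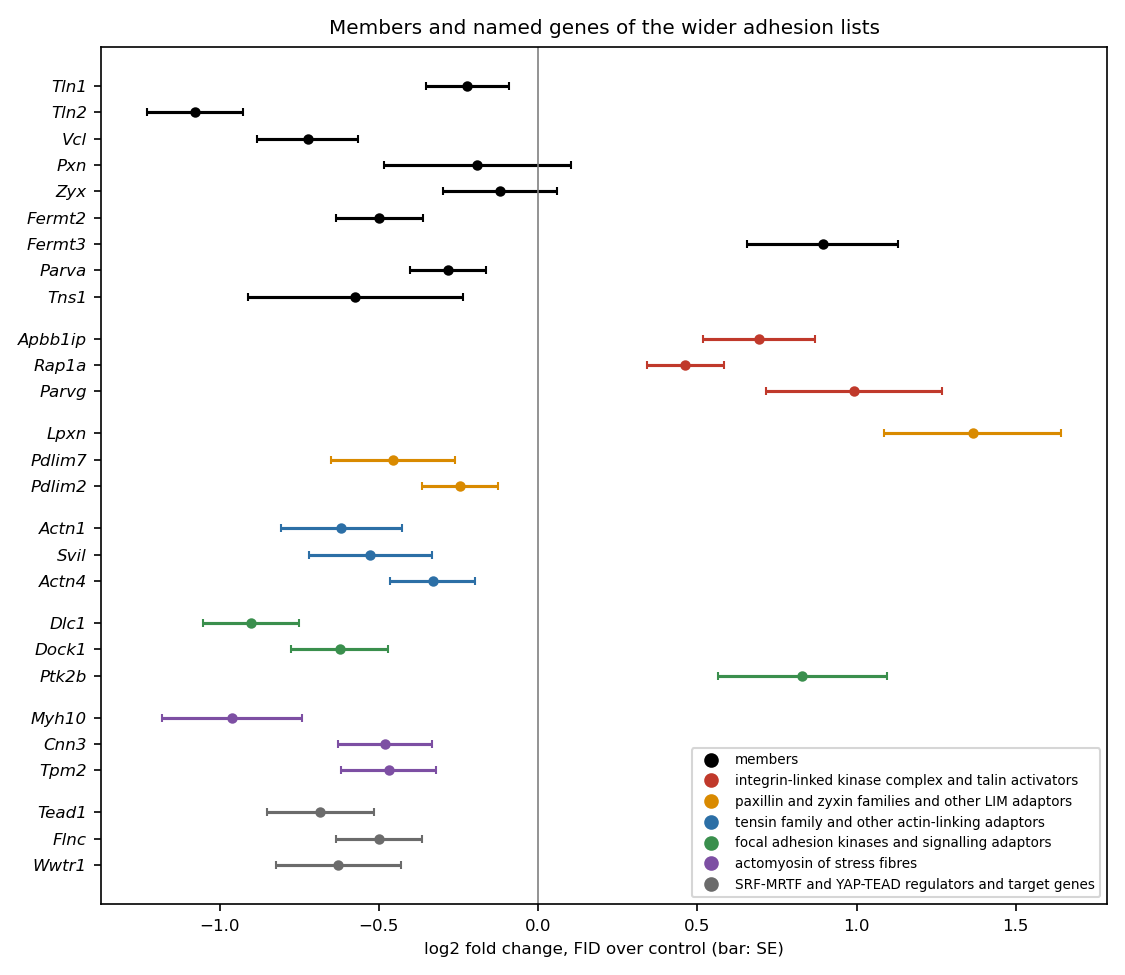
Log2 fold change of FID over control with its SE for the 9 measured members and the 3 genes with the smallest p of each further list, from the fit to 12881 genes. Fermt3, Apbb1ip, Rap1a, Parvg, Lpxn and Ptk2b lie above 0 and the other 21 genes below.

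In 4 pairs of related genes with 1 form typical of blood cells, that form stood higher against its partner in FID. Per length, Parva stood at 1.36 ± 0.312 times Parvg in FID and 3.49 ± 1.48 times in control, and Pxn at 0.460 ± 0.209 times Lpxn in FID and 1.18 ± 0.440 times in control (SD, n = 3 each). Ptk2, focal adhesion kinase, stood at 0.764 ± 0.166 times Ptk2b in FID and 1.75 ± 0.495 times in control. These ratios and that of Fermt2 to Fermt3 did not overlap between the groups. Parvg, Lpxn and Ptk2b were named for a small p in this same contrast, and Fermt3 was chosen with it known. The separation of these 4 ratios therefore follows that choice and supports nothing further. Of the pairs with no such form, Parva to Parvb, Pxn to Tgfb1i1 (the paxillin relative Hic-5) and Tns1 to Tns3 overlapped, and Tln1 to Tln2 did not.

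Leukocyte markers ran alongside Fermt3 and the blood-cell forms. All 12 pan-leukocyte markers had a log2 fold change above 0, none was at 0 counts, and they summed to 1923, 2924 and 2385 CPM in FID 1, 2 and 3, against 1529, 1232 and 906 CPM in control 1, 2 and 3. Of 18 macrophage markers 17 lay above 0, with sums of 8481 to 11190 CPM in FID and 3974 to 6406 CPM in control. Per 1000 CPM of pan-leukocyte markers, Fermt3 stood at 46.6, 39.6 and 39.6 in FID 1, 2 and 3, against 44.8, 46.6 and 40.1 in control 1, 2 and 3, so on that scale the groups overlapped. Parvg did too, at 20.3 ± 2.75 in FID and 19.7 ± 2.44 in control, as did Lpxn, at 27.0 ± 4.98 in FID and 21.8 ± 3.64 in control. Apbb1ip overlapped with a wide scatter, at 51.0 ± 6.84 in FID and 66.3 ± 29.4 in control (SD, n = 3 each). It stood at 41.5, 58.5 and 98.8 in control 1, 2 and 3. Within control its CPM was highest in control 3, where the leukocyte sum was lowest, so there it did not follow these markers. Against macrophage markers Fermt3 stood at 9.91 ± 1.67 in FID and 9.70 ± 0.857 in control, also with overlap.

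Markers of FAPs and fibroblasts ran alongside the members that were lower. Of 17 markers 16 lay below 0, none was at 0 counts, and they summed to 34380, 26250 and 24160 CPM in FID 1, 2 and 3, against 47230, 49870 and 44610 CPM in control 1, 2 and 3. Per 1000 CPM of this sum, Tln2 stood at 1.70, 1.90 and 2.12 in FID, against 2.01, 2.25 and 2.89 in control, and Vcl at 3.60 ± 0.429 in FID and 3.51 ± 0.625 in control (SD, n = 3 each), with overlap in both. Fermt2 and Parva stood higher in FID on that scale, Fermt2 at 4.11 ± 0.520 in FID and 3.45 ± 0.359 in control, without overlap, and so did Tln1, at 20.1 ± 3.59 in FID and 13.7 ± 0.749 in control. Type I and III collagen genes make up most of the sum. Without them Tln2 stood at 8.79 ± 1.39 in FID and 16.3 ± 1.29 in control, without overlap. Vcl stood at 16.6 ± 2.62 in FID and 24.5 ± 6.48 in control. Its groups were barely apart, at 19.3 in FID 1 and 19.9 in control 3, while Tln1, Fermt2 and Parva overlapped. That smaller sum holds Ly6a, at 497, 2327 and 1890 CPM in FID, against 434, 446 and 662 CPM in control. Ly6a thus enlarged the sum most in FID 2 and 3, and ratios to a sum without Ly6a were not computed.

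**Figure D5:**
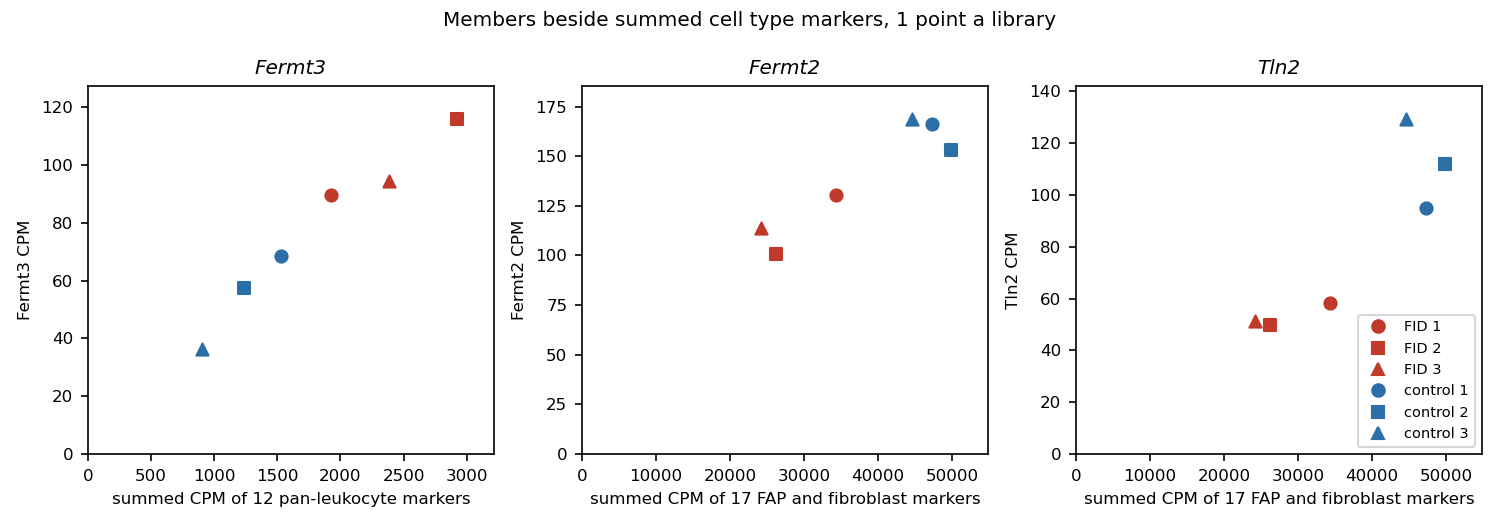
CPM of Fermt3 against the summed CPM of 12 pan-leukocyte markers, and CPM of Fermt2 and of Tln2 against the summed CPM of 17 FAP and fibroblast markers, 1 point a library, axes from 0. Fermt3 is highest in FID 2 (116 CPM at 2924 CPM of markers) and lowest in control 3 (36.3 CPM at 906 CPM of markers), and Tln2 in control runs from 94.9 to 129 CPM where the marker sum differs little.

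Tln2 was also lower beside Parva and Fermt2, which were themselves lower in FID by less than Tln2. Tln2 per length stood at 0.140 ± 0.00573 times Parva in FID and 0.243 ± 0.0342 times in control, and at 0.131 ± 0.00756 times Fermt2 in FID and 0.195 ± 0.0294 times in control (SD, n = 3 each). Neither ratio overlapped between the groups.

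Other cell types gave no sum that separated the groups. Platelet markers summed to 7.46 to 29.2 CPM in FID and 8.98 to 11.2 CPM in control, T and B cell markers to 7.24 to 15.6 CPM in FID and 1.95 to 14.8 CPM in control with Cd3e at 0 in all libraries, and neutrophil markers to 85.4 to 106 CPM in FID and 58.7 to 95.9 CPM in control. Satellite cell markers summed to 228 to 302 CPM in FID and 232 to 363 CPM in control, Schwann cell markers to 53.6 to 76.5 CPM in FID and 58.2 to 77.5 CPM in control, and tenocyte markers to 418 to 1168 CPM in FID and 921 to 2511 CPM in control. Of 6 tenocyte markers tested, 5 lay below 0, with a median log2 fold change of -0.97, none past edgeR's adjusted test and 1 called by DESeq2. The part of any cell type in the members' values was not tested.

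The genes most like each talin and kindlin across the 6 libraries were ranked by the root mean square difference of centred log2 CPM. For Tln1 they were Crkl, an adaptor that acts in adhesion signalling (0.0234), Alkbh5, Csnk1d, Ttc7b and Khdc4 (up to 0.0426), against a root mean square deviation of 0.143 for Tln1 itself. For Tln2 they were the secreted guidance ligand gene Slit3 (0.0839), Thsd7a, Lonrf1, Cntrob and the matrix protein gene Ccdc80 (up to 0.166), against 0.550 for Tln2 itself. For Fermt2 they were Cplane1 (0.0453), Ubap2, Usp34, Cmtm4 and Gm15706 (up to 0.0622), against 0.278. For Fermt3 they were Nfam1, a receptor of immune cells (0.0596), Otulinl, Stxbp2, Gna15 and Parvg (up to 0.0837), against 0.545. The lists share no gene, and Slit3 stood at 116, 93.7 and 113 CPM in FID, against 186, 215 and 277 CPM in control, with control 3 the highest as for Tln2. Since the ranking used these same 6 libraries, the shared pattern follows from it and supports nothing further.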

How the data were processed

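Values are raw read counts per Ensembl gene, as the authors deposited them for 6 libraries. The submitters' processing notes name mm10, and cutadapt, Bowtie2 2.5.4, SAMtools, STAR, DESeq2 and HTSeq, with no role for each. Annotation release and strand setting are not stated in them. Per the labels' protocols, a directional kit was used on 1000 ng of RNA with integrity numbers above 5.6. Rows that name no gene (9.60% to 10.9% of each file) stayed out of library sizes and tests. Symbols were matched for 42462 of 43432 genes, and gene models are those of GENCODE M21 on the same assembly.

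Genes passing edgeR 4.0.16 filterByExpr (at its settings of 10 counts and a total of 15) were scaled with TMM factors and fitted with the quasi-likelihood test, group as the only term, two-sided, Benjamini-Hochberg adjusted at 0.05. Log2 fold changes are FID over control. SE is the absolute log2 fold change over the square root of F. The common biological coefficient of variation was 23.1%. RPKM divides CPM by kilobases of exon shared with no other listed gene. Ratios carry a prior count of 0.5, and likeness a pseudocount of 0.5 CPM. DESeq2 1.42.0, limma 3.58.1, other scalings and filters, the replicate number as a block and leaving out libraries were tried. The fits were tested on simulated data. A count of 0 allows 3 counts, which is 0.593 CPM in control 1 and 0.293 CPM in control 3, for counting error only. Libraries of a group differed beyond sampling noise (chi-square per degree of freedom 14.1 to 46.0).

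The members, gene lists, gene pairs and tests were chosen with earlier results of these data known. Named genes are the members, the 3 genes of smallest p in each further list, the 5 genes most like each talin and kindlin, and Igf1. Ilk's neighbours, Fermt1, the paired relatives, Ly6a, Actb and Tpm3 were named after their values were seen. So were Ccn1, Ankrd1, Fhl2 and Axl. The members' promoter entries were read from RefSeq on GRCm38.p6.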

Additional observations from a re-analysis of the deposited data

How the results depend on the processing

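The count of genes past the adjusted threshold was 0 with edgeR, with limma-voom, with RLE factors or library totals and with a filter of 5 CPM in 3 libraries. It was 760 with DESeq2, 1531 with limma-voom and sample weights and 269 with no filter on low counts. It ranged from 0 to 359 with 1 library left out, 359 being without FID 1 and 3 without control 1, and it was 1168 without control 1 and FID 1 together, an alternative added after seeing the data. The cause was not tested. Tln2 passed edgeR's test with no filter (adjusted p 0.0178), without FID 1 (0.0351) and without control 1 and FID 1 (0.00542), and its adjusted p over all alternatives ran from 5.48e-06 to 0.443. Vcl and Fermt3 passed without control 1 and FID 1 (0.0285 and 0.0222). The log2 fold change of Pxn was 0.18 without control 1 and 0.17 without control 1 and FID 1, and that of Zyx 0.069 and 0.045, all above 0. With 1 library left out Pxn ran from -0.45 to 0.18 and Zyx from -0.24 to 0.069. Over 15 alternatives Tln1, Tln2, Vcl, Fermt2, Parva and Tns1 stayed below 0 and Fermt3 above, though Tns1 was -0.053 without control 1. The members' median ran from -0.45 to -0.17 and the Tln1 to Tln2 difference from 0.66 without control 3 to 1.07 without control 1 and FID 1. With the replicate block edgeR called 0 genes. Deviations of same-numbered libraries from their group means had correlations of -0.0128, -0.320 and 0.343. With 3 libraries in each group these values cannot tell whether the numbers pair the libraries. Depth does not limit the 9 tested members, whereas Ilk is limited by counting that does not separate strands.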
